A study of Rattus norvegicus with 6 samples.

Results

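Fibrillar collagen chains were followed in cultures of UMR106-01, a clonal rat osteosarcoma line with osteoblast properties, a tumour line rather than primary bone cells. The members are 8 genes fixed by name, Col1a1, Col1a2, Col3a1, Col5a1, Col5a2, Col5a3, Col11a1 and Col24a1. They were chosen with earlier results of these data known. Every probe set whose annotation gives 1 symbol equal to a member name was used. This gave 14 probe sets of the 31042 on the array that are not controls. There were 3 mineralizing cultures and 3 mineralizing cultures with AEBSF, a serine protease inhibitor. Both groups were plated at 100000 cells per cm2 with 10% fetal bovine serum, given 6.5 mM beta-glycerol phosphate, an organic phosphate source, with a change of medium at 64 h, and harvested at 76 h. The AEBSF group had 400 µM of the inhibitor for those last 12 h, so both groups carry the phosphate source. Each culture gave 1 array, and values are MAS5 signals on a linear scale set to the same overall level on every array.

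Fibrillar collagens are secreted as procollagens, trimers of chains that fold from the C-terminal end in the endoplasmic reticulum, lose their end peptides to proteases outside the cell and assemble into the banded fibrils on which bone mineral is laid down. Type I collagen, made of the Col1a1 and Col1a2 chains, is the main fibril former of bone, and type III collagen is a homotrimer of the Col3a1 chain found in more compliant tissues. Types V and XI are quantitatively minor chains that start fibrils and limit their width, and Col24a1 belongs to a separate, evolutionarily older class of fibrillar chains expressed in developing bone.

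With AEBSF, the 2 chains of type I collagen, the type V chain Col5a2, the type XI chain Col11a1 and Col24a1 all fell, by 1.32- to 2.18-fold on the brightest probe set of each gene. Type V chain Col5a1 fell on 1 of its 2 probe sets, and Col3a1 and Col5a3 were too dim to be tested. By the filter on mean signal over all 6 arrays (67.2, the 40th percentile), 12 of the 14 probe sets and 6 of the 8 genes were tested. Of these 12 probe sets 11 were lower with AEBSF at a limma adjusted p of 0.05, 0 were higher (all 12 estimates were below 0) and 1 did not pass, where 7.41% of all 18625 tested probe sets were lower. In the same 11 probe sets all 3 AEBSF arrays lay below all 3 mineralizing arrays, an arrangement that 16.5% of all tested probe sets had. One of them, Col11a1 probe set 1384931_at, passed the filter through the mineralizing arrays alone; without it, a count added after seeing the data, 10 of 11 were lower and the groups lay apart in 10. Taking the brightest probe set per gene, 5 of 6 tested members were lower against 9.22% of 9864 tested genes, and 2 of 6, Col1a2 and Col11a1, had fallen at least 2-fold against 0.233%. Since the members were chosen with earlier results of these data known, these shares are a description. The median log2 fold change was -0.79 over the 6 tested members and 0.002 over all tested genes. Scaling to the hybridization controls moved the latter to -0.144 and kept every member call. Signals were set to the same overall level on every array, so falls are relative to the level of all genes. In bulk RNA from cultures, fewer expressing cells and less RNA per cell cannot be told apart.

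**Figure D1:**
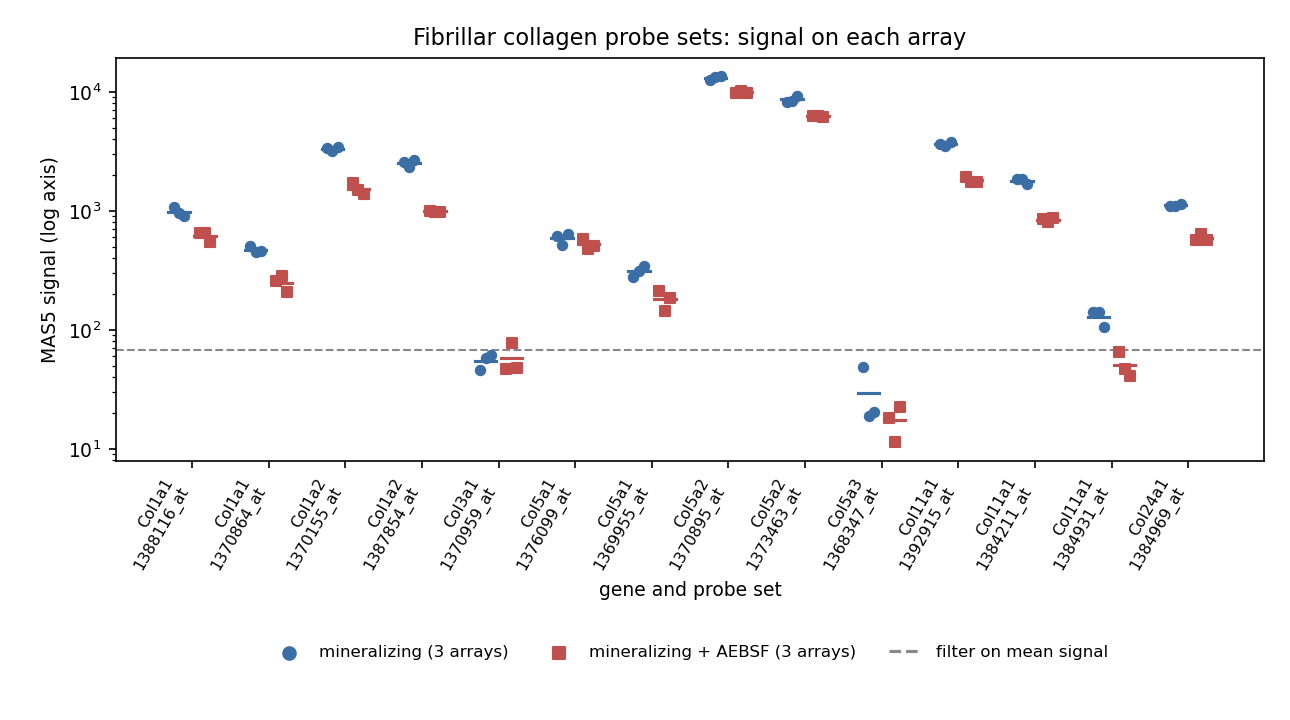
MAS5 signal (log axis) of each of the 14 fibrillar collagen probe sets on the 3 mineralizing arrays (blue circles) and the 3 arrays with AEBSF (red squares), with group means as bars and the filter signal of 67.2 as a dashed line. The groups overlap for Col3a1, Col5a3 and Col5a1 probe set 1376099_at and lie apart, AEBSF lower, for the other 11.

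Col1a2 encodes the alpha-2 chain that completes the type I trimer. Its probe set 1370155_at read 3386, 3176 and 3438 in the mineralizing cultures and 1724, 1485 and 1391 in the AEBSF cultures. Every AEBSF array was below every control array, and the spread within each group was small beside the gap. The mean went from 3334 ± 139 to 1534 ± 171 (SD, n = 3 each), 45.8% of the control level, with a log2 fold change of -1.13 (SE 0.08; limma gave an adjusted p = 1.27e-05). A second Col1a2 probe set, 1387854_at, fell further, from 2572, 2334 and 2665 to 1005, 976 and 981. The AEBSF cultures of this probe set were nearly equal (SD 15.6), at 39.2% of the control level (log2 fold change -1.35 ± 0.06 SE; adjusted p = 1.59e-06 in limma). Ranked by p over all 18625 tested probe sets, it stood at rank 1 and the other Col1a2 probe set at rank 7.

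Col1a1 encodes the alpha-1 chain, of which each type I trimer holds a pair. On probe set 1388116_at the mineralizing cultures read 1084, 952 and 910 and the AEBSF cultures 648, 657 and 547. The groups did not overlap, and the fall was 1.59-fold (log2 fold change -0.67 ± 0.09 SE; adjusted p = 0.00116 in limma). On probe set 1370864_at the values were 511, 449 and 456 against 255, 284 and 208, a fall of 1.91-fold (log2 fold change -0.93 ± 0.13 SE; adjusted p = 0.00102 in limma). Culture 3 was the lowest AEBSF culture on both Col1a1 probe sets.

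The promoters of 6 of the 8 members were matched by symbol in RefSeq's table for build GRCr8; Col1a1 and Col3a1 had no entry. In each, the 250 bases before the annotated start were searched on both strands for TATAAA (the TATA box), CCAAT (the CCAAT box), GGGCGG (the GC box), TGACGT (the core of a cyclic AMP response element, bound by CREB and ATF factors) and the ER stress response element, which opens with CCAAT, goes on with 9 bases of any kind and closes with CCACG. Stretches of the 3 members with the largest falls on their brightest probe sets and an entry are shown 5′ to 3′ on the plus strand, with matches in capitals: Col1a2 at chr4:33518307-33518406, Col11a1 at chr2:204508886-204509135 and Col24a1 at chr2:236872484-236872593.

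Col1a2: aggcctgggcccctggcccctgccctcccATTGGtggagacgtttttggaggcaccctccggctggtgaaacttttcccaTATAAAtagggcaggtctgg
Col11a1: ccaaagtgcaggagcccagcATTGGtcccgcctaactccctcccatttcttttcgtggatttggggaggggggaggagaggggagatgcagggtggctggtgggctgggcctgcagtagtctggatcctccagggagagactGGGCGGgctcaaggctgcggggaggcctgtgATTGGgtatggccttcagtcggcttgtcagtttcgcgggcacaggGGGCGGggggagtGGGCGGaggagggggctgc
Col24a1: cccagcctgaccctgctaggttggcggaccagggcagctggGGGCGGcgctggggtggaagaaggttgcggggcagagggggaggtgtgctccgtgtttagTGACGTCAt

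The Col1a2 window held 1 TATA box, at -170 to -165 from the annotated start, and 1 CCAAT box, at -221 to -217 on the strand opposite to the gene (ATTGG as printed). Most of this window therefore lies downstream of the TATA box, and only its first 100 bases are shown. Col11a1 held 2 CCAAT boxes, both on the opposite strand, and 3 GC boxes. The Col24a1 stretch precedes 1 of that gene's 3 annotated starts, which is not the outermost, and held 1 GC box and, from -49, TGACGT matched on both strands at overlapping positions. The window of the outermost start held 1 GC box and 0 TGACGT matches, since the printed TGACGT site lies downstream of that start. The window of the remaining start held the same TGACGT site, from -249 of that start, and 0 GC boxes. The GC box in the window of the outermost start is likewise the printed one, since these windows overlap. The Col5a2 window held 0 matches to these motifs, the Col5a1 window 1 GC box and the Col5a3 window 1 CCAAT box and 3 GC boxes. None of the 8 windows of these 6 members held the ER stress response element. Of 33465 such windows over the annotation, 34.0% held a CCAAT box, 30.5% a GC box, 12.9% a TATA box, 6.95% the TGACGT core and 0.0657% the ER stress response element. A match describes the letters in these windows and no binding was measured.

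Col3a1 was dim: probe set 1370959_at stood at 46.0, 57.7 and 61.4 in the mineralizing cultures and 47.1, 77.8 and 48.0 with AEBSF, below the filter in all but 1 array. With no filter its log2 fold change was 0.04 (SE 0.34, limma adjusted p = 0.973), so the precision allows no statement on its direction. In the GRCr8 annotation Col3a1 and Col5a2 are neighbours with 0 genes between them, and Col5a2 was above the filter on every array.

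Type V collagen was covered by probe sets for 3 chains. Col5a2, the alpha-2 chain, also pairs with the type XI chain Col11a1 in mixed trimers of bone. Its probe set 1370895_at read 12520, 13270 and 13610 in the mineralizing cultures and 9788, 10250 and 9738 with AEBSF. The AEBSF cultures were all lower, with a fall of 1.32-fold (log2 fold change -0.40 ± 0.05 SE; adjusted p = 0.000804 in limma). Probe set 1373463_at of the same gene read 8290, 8456 and 9211 against 6257, 6292 and 6178, a fall of 1.38-fold (log2 fold change -0.47 ± 0.05 SE; adjusted p = 0.000415 in limma). These were the smallest falls among the member probe sets that passed, and both had narrow intervals, from -0.52 to -0.29 and from -0.59 to -0.35.

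Col5a1 encodes the alpha-1 chain of type V, needed for fibril nucleation. Its 2 probe sets differed. Probe set 1376099_at, the brighter, read 619, 518 and 642 in the mineralizing cultures and 578, 482 and 507 with AEBSF. The groups overlapped and the difference did not pass (log2 fold change -0.18, 95% interval -0.41 to 0.05, limma adjusted p = 0.29). Probe set 1369955_at read 280, 310 and 346 against 211, 145 and 186, with no overlap, and fell 1.75-fold (log2 fold change -0.80 ± 0.16 SE; adjusted p = 0.00738 in limma). The mean log2 signal of both probe sets gave -0.49 (SE 0.12, limma adjusted p = 0.0196), so the call for this gene rests on how its probe sets are combined. The within-array log2 difference between the 2 probe sets was 0.93 ± 0.20 in the mineralizing cultures and 1.55 ± 0.16 with AEBSF (SD, n = 3 each).

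Col5a3, a further type V chain found in some tissues, was the dimmest member. Probe set 1368347_at read 48.6, 18.8 and 20.4 in the mineralizing cultures and 18.1, 11.3 and 22.6 with AEBSF, below the filter on every array. The high mineralizing mean came from culture 1 alone, and with no filter the difference did not pass (log2 fold change -0.67 ± 0.59 SE; adjusted p = 0.616 in limma).

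Col11a1 is the alpha-1 chain of type XI, known from cartilage and also made by osteoblasts. Probe set 1392915_at read 3641, 3491 and 3777 in the mineralizing cultures and 1941, 1754 and 1745 with AEBSF. Every AEBSF culture was far below every control culture, a fall of 2.01-fold with a narrow interval (95% interval of the log2 fold change -1.14 to -0.87, limma adjusted p = 6.55e-06). Probe set 1384211_at read 1867, 1840 and 1679 against 854, 804 and 870, a fall of 2.13-fold (log2 fold change -1.09 ± 0.07 SE; adjusted p = 6.55e-06 in limma). The pair stood at ranks 3 and 5 by p over all tested probe sets. Probe set 1384931_at was dim, with 142, 141 and 105 against 65.0, 47.2 and 40.9. It passed the filter through the mineralizing arrays alone, since all 3 AEBSF arrays were below 67.2, so its fall of 2.56-fold (log2 fold change -1.36 ± 0.25 SE; adjusted p = 0.00548 in limma) is no independent support.

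Col24a1 was read by 1 probe set, 1384969_at. The mineralizing cultures stood at 1093, 1097 and 1138 and the AEBSF cultures at 564, 643 and 565. The controls were almost equal (SD 24.7) and the groups were far apart, a fall of 1.88-fold (log2 fold change -0.91 ± 0.08 SE; adjusted p = 5.22e-05 in limma). Among 9864 tested genes ordered from the largest fall, Col1a2 was at place 14, Col11a1 at 24, Col24a1 at 46, Col1a1 at 150, Col5a2 at 684 and Col5a1 at 2183.

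**Figure D2:**
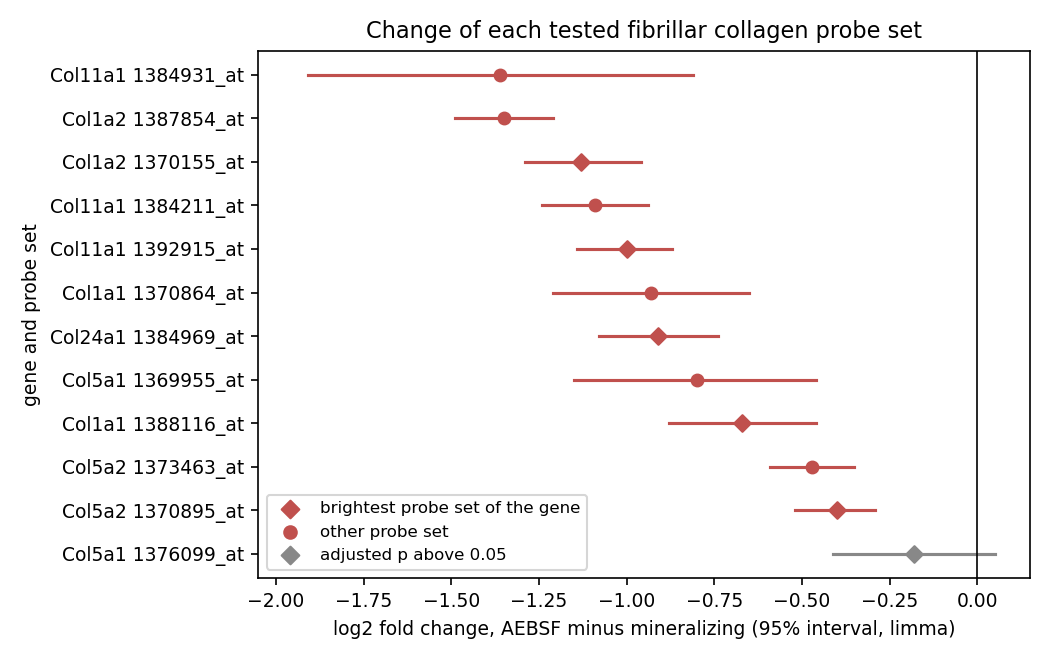
Log2 fold change, AEBSF minus mineralizing, of the 12 tested probe sets with 95% limma intervals; diamonds mark the brightest probe set of each gene, circles other probe sets, and grey the one with adjusted p above 0.05. Intervals of Col1a2 and Col11a1 lie below those of Col5a2, and only Col5a1 probe set 1376099_at has an interval that reaches past 0.

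The sizes of the falls were compared between chains. Differences of log2 signal between 2 members were taken within each array, which removes any scaling of the array, for the 15 pairs of the 6 tested members on their brightest probe sets. In 11 of 15 pairs the 3 AEBSF arrays lay apart from the 3 mineralizing arrays, each with an exact two-sided permutation p = 0.1, the smallest that 3 against 3 allows (adjusted p = 0.136 over the 15 pairs), so no pair could pass 0.05. The 15 pairs are built from 6 profiles and are not separate observations. The share of other gene pairs with groups apart was not computed, so the count of 11 is a description. The pairs of Col5a2 with Col1a2 and with Col11a1 were among the 11. The within-array difference of Col5a2 and Col11a1 was 1.78, 1.93 and 1.85 in the mineralizing cultures and 2.33, 2.55 and 2.48 with AEBSF, a shift of 0.60. For the 4 combinations of Col5a2 and Col11a1 probe sets without the dim 1384931_at, this shift was between 0.54 and 0.69, with the groups apart in all 4. Between Col1a2 and Col5a2 it was between -0.95 and -0.66 in the 4 combinations, with the groups apart in all 4. Pairs with Col5a1 depended on the probe set used. Without 1384931_at, Col1a2 minus Col5a1 shifted by -1.17 to -0.32, with the groups apart in 3 of 4 combinations. Col5a1 minus Col11a1 shifted by 0.2 to 0.91 (apart in 2 of 4). Col1a1 minus Col5a1 changed sign, from -0.75 to 0.13 (apart in 2 of 4), as did Col5a1 minus Col5a2, from -0.4 to 0.29 (apart in 3 of 4).

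Within type I collagen, the ratio of Col1a1 to Col1a2 signal was higher in each AEBSF culture than in each mineralizing culture. The within-array difference Col1a1 minus Col1a2 was -1.64, -1.74 and -1.92 in the mineralizing cultures and -1.41, -1.18 and -1.35 with AEBSF, a shift of 0.45 or 1.37-fold (exact permutation p = 0.1). In the 4 combinations of their probe sets the shift was between 0.19 and 0.68, above 0 in all and with the groups apart in 3. Probe sets of a single gene also shifted against each other, by 0.26 for Col1a1 and 0.23 for Col1a2 with the groups apart, and by 0.62 for Col5a1. In each member with several tested probe sets the brightest fell least and the dimmest most. Col5a2, with the smallest falls that passed, was also the brightest member. Col1a2 and Col11a1, however, were brighter than Col1a1 and Col24a1 and fell further. The part of signal level in the differences between chains was not tested. The shifts among Col1a2, Col11a1 and Col24a1 were -0.12 (Col1a2 minus Col11a1, groups apart), -0.21 (Col1a2 minus Col24a1, overlapping, exact permutation p = 0.3) and -0.09 (Col11a1 minus Col24a1, overlapping, exact permutation p = 0.6). At 3 cultures a group these values do not show that the 3 chains change alike.

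**Figure D3:**
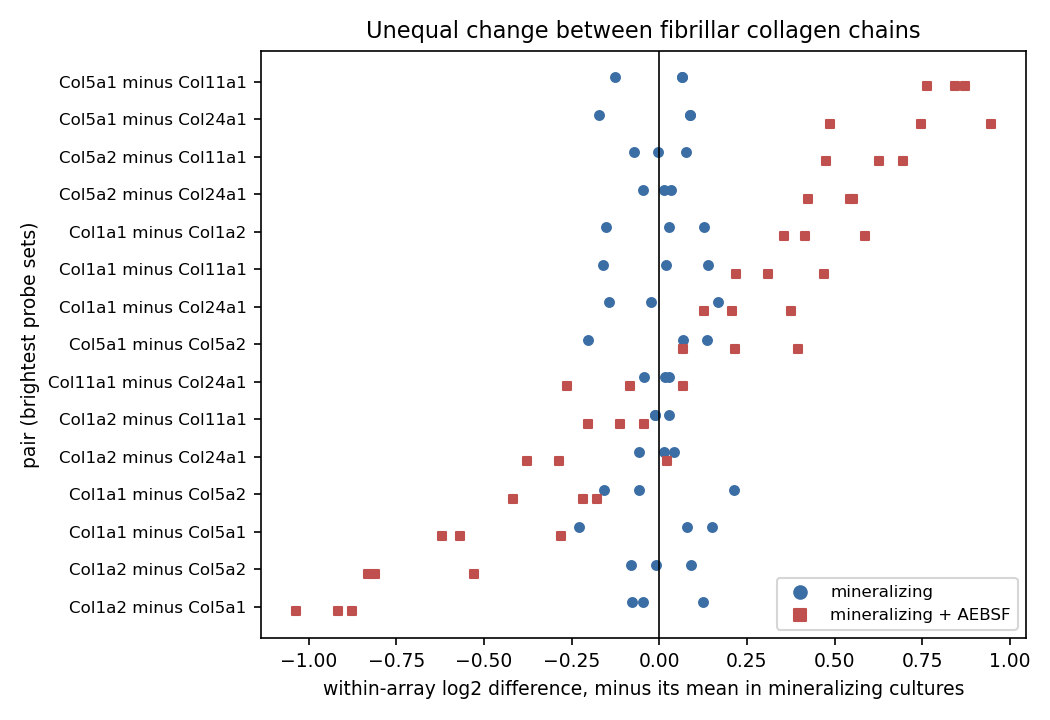
Within-array log2 difference between 2 members for the 15 pairs of tested members, each minus its own mean in the mineralizing cultures (blue circles, 3 arrays; red squares, 3 arrays with AEBSF). On the brightest probe sets shown, the widest log2 shifts are -0.94 for Col1a2 minus Col5a1 and 0.82 for Col5a1 minus Col11a1. Both shifts rest on Col5a1 probe set 1376099_at and were smaller with the other Col5a1 probe set. The groups overlap in 4 pairs.

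Patterns were also compared over the 6 arrays by the root mean square distance between profiles of log2 signal, each minus its own mean, on the brightest probe set per gene. Col11a1 lay 0.076 from Col1a2, nearer than any of the 9858 tested genes that are not members. Ordered from Col11a1, Col1a2 stood at place 7. The next nearest to Col1a2 were Acss2 (0.084), a cytosolic enzyme that makes acetyl-CoA, Pygl (0.086), the liver form of glycogen phosphorylase, and Fn1 (0.1), which encodes fibronectin. Nearest to Col11a1 were Fn1 (0.032), Rgs16 (0.054), a regulator of G-protein signalling, and Nucb2 (0.061), a calcium-binding protein. Nearest to Col1a1 were Ctsc (0.052), a lysosomal protease, Rcan2 (0.066), a calcineurin regulator, and Fam184a (0.069). Ordered by distance from Col1a1 with these other genes, Col1a2 stood at place 1104, at 0.251. These distances share the same 6 arrays and are a description.

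The other genes of the collagen pathway were taken from lists by role. These lists were also chosen with earlier results of these data known, so their shares beside all tested genes are a description. Of 109 genes listed, 86 had a probe set, 25 of these were below the filter and 61 were tested: 17 were lower, 2 higher and 42 did not pass, against 9.22% lower and 7.09% higher among all tested genes. The lower count was between 9 and 15 without 1 culture (9, 10 and 11 without mineralizing cultures 2, 1 and 3), 9 with a constant variance prior and 11 with no filter. The list median log2 fold change was -0.07.

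The remaining fibrillar chains did not pass in limma (0 of 2 tested, also at an unadjusted p under 0.05). Col27a1, the relative of Col24a1 in its class, had signals of 101 ± 29.1 and 131 ± 14.8 (SD, n = 3 each; log2 fold change 0.41 ± 0.23 SE; adjusted p = 0.26 in limma). Col11a2, the alpha-2 chain of type XI, stood at 75.6 ± 8.10 and 62.2 ± 1.42 (limma adjusted p = 0.48). Col2a1, the cartilage chain that also serves in type XI trimers, was below the filter.

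Among genes that fold, modify and export collagen, 9 of 17 tested were lower in limma (52.9%, against 9.22% of all tested genes) and 0 higher. At an unadjusted p under 0.05 the counts were 9 and 1, and the list median was -0.19. The falls of P4ha1, P3h1, Fkbp10, Mia3 and Sec24d were small, 1.14- to 1.24-fold, with limma adjusted p from 0.0118 to 0.0439. Whether these small falls kept their calls in the other settings was not examined gene by gene. A second Mia3 probe set did not pass (log2 fold change -0.08, limma adjusted p = 0.848). Fkbp14, a prolyl isomerase of the endoplasmic reticulum that acts on collagens, fell from 631 ± 15.3 to 316 ± 33.8 (adjusted p = 0.000179 in limma). P4ha2, a prolyl hydroxylase subunit, fell by 0.58 on the log2 scale, while Plod2 (-0.44) and Plod1 (-0.39), lysyl hydroxylases, were also lower; the Plod1 call was lost with a constant variance prior (limma adjusted p = 0.056). Values of the collagen chaperone Serpinh1 (5514 ± 340 and 5694 ± 425) and of P4hb (10480 ± 401 and 10450 ± 539), the partner of the prolyl hydroxylases, did not pass; these genes were picked after their values were seen, for their known roles.

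Proteins that bind or shape fibrils gave 4 falls and 0 rises among 8 tested in limma (50.0% lower, against 9.22% of all tested genes). At an unadjusted p under 0.05 the counts were also 4 and 0, and 9 of 17 measured were below the filter. Fn1, on which collagen fibrils are assembled, fell from 5282 ± 259 to 2668 ± 69.7, a log2 difference of -0.98 ± 0.06 SE. Col12a1, a collagen that sits on the fibril surface, fell from 302 ± 29.0 to 160 ± 17.7 and Emilin1, an elastic-fibre glycoprotein, from 1032 ± 50.9 to 659 ± 117. Tgfbi, which binds collagens and integrins, fell from 127 ± 8.11 to 74.3 ± 12.0, a call lost without any one of mineralizing cultures 1, 2 and 3 or AEBSF cultures 1 and 3 (limma adjusted p = 0.0707, 0.0928, 0.0939, 0.0656 and 0.0704) and with no filter (0.0755).

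Processing and crosslinking were covered by few probe sets. Pcolce, which enhances removal of the procollagen C-propeptide, fell from 2790 ± 58.9 to 2334 ± 300 (limma adjusted p = 0.0461) and Loxl2, a lysyl oxidase, from 714 ± 31.3 to 568 ± 75.9 (limma adjusted p = 0.0472). Pcolce lost its call without any one of 5 cultures, all but AEBSF culture 1 (limma adjusted p = 0.105 to 0.133), and Loxl2 without any one of 5 cultures, all but AEBSF culture 3 (0.0514 to 0.138). Both calls were also lost with median centring (0.0865 for Pcolce and 0.0744 for Loxl2), no filter (0.0916 and 0.0822) and a constant variance prior (0.167 and 0.126), and that of Loxl2 with quantile normalization (0.0542). These Loxl2 values are for its brightest probe set. Another Loxl2 probe set, 1380474_at, was lower (log2 fold change -0.62, limma adjusted p = 0.0264). The mean of the Loxl2 probe sets was lower too (-0.48, limma adjusted p = 0.0219). Bmp1, which cuts the C-propeptide, stood at 208 ± 43.0 and 214 ± 13.3, and Loxl3 at 407 ± 31.5 and 360 ± 16.7, and neither passed (limma adjusted p = 0.856 and 0.294). The tested Bmp1 probe sets differed. The log2 fold change was 0.06 on the brightest and -0.49 for their mean, which did not pass either (SE 0.24, limma adjusted p = 0.2). Lox and Loxl1 were below the filter.

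Of 4 tested collagen receptors 1 was lower (against 9.22% of all tested genes), 1 higher (against 7.09%) and 2, Itga1 and Itgb1, did not pass. Ddr2, a receptor tyrosine kinase for fibrillar collagen, fell from 3823 ± 308 to 2700 ± 129, a log2 difference of -0.50 ± 0.07 SE. Ddr1, its relative, rose from 233 ± 15.0 to 327 ± 16 (log2 difference 0.49 ± 0.12 SE; adjusted p = 0.0176 in limma). Ddr1 no longer passed without any one of 4 cultures, mineralizing 1 and 3 and AEBSF 1 and 2 (adjusted p = 0.0512 to 0.06 in limma), with hybridization scaling (0.139) or after averaging its probe sets (0.207), and another Ddr1 probe set did not pass (log2 fold change 0.10). A Ddr2 probe set, 1368673_at, did not pass (log2 fold change -0.20, limma adjusted p = 0.155). Of 5 tested genes of collagen degradation 0 passed in limma, where 9.22% of all tested genes were lower and 7.09% higher. At an unadjusted p under 0.05 the count was also 0. Mmp14, a membrane collagenase, stood at 1811 ± 71.4 and 1721 ± 93.6, and Timp1, an inhibitor of matrix metalloproteases, at 704 ± 59.2 and 755 ± 73.1.

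Among 21 tested genes that regulate fibrillar collagen genes, 1 was lower (4.76%, against 9.22% of all tested genes), 1 higher and 19 did not pass; 5 were lower and 5 higher at an unadjusted p under 0.05. Sox6, a partner of Sox9 on cartilage collagen genes, fell from 1548 ± 42.1 to 813 ± 61.9, a log2 difference of -0.93 ± 0.07 SE, and a second Sox6 probe set fell by 0.35. Smad7, an inhibitor of TGF-beta signalling, rose from 202 ± 41.8 to 308 ± 8.29 (log2 difference 0.63 ± 0.16 SE; adjusted p = 0.0225 in limma). Smad7 did not pass when mineralizing culture 3, AEBSF culture 1 or AEBSF culture 2 was left out (adjusted p = 0.0591, 0.0629 and 0.0564 in limma), nor with hybridization scaling (0.0597), a constant variance prior (0.0724) or its probe sets averaged (0.137), and 2 other Smad7 probe sets did not pass (0.42 and 0.14).

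**Figure D4:**
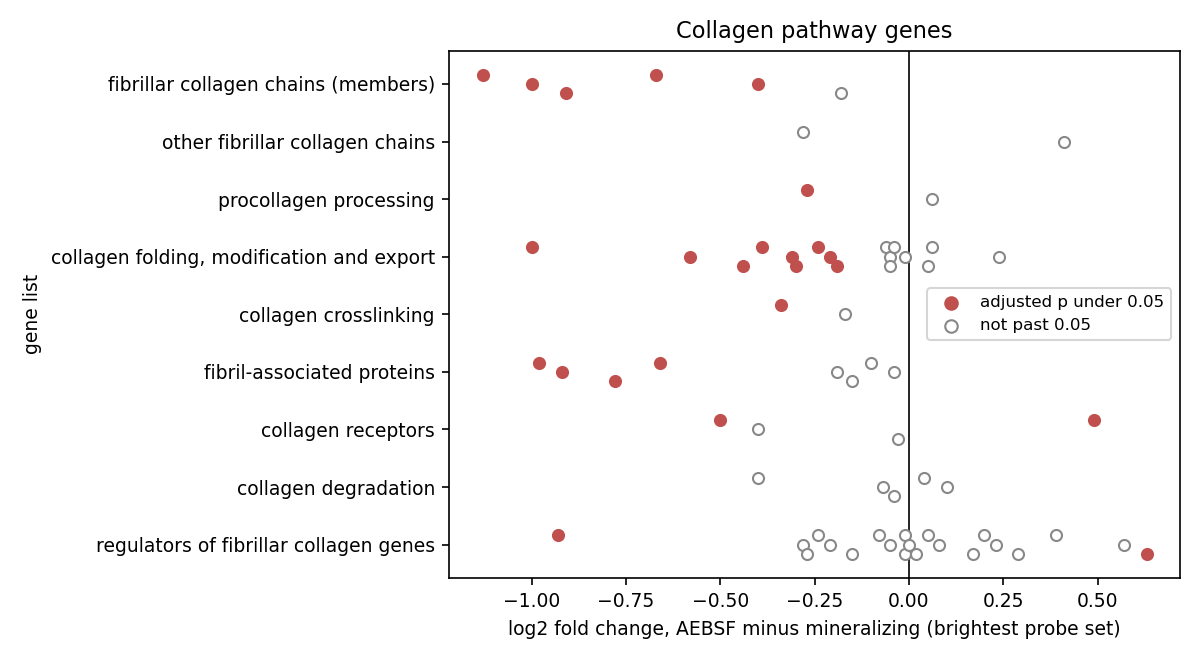
Log2 fold change, AEBSF minus mineralizing, of the 6 tested members and the 61 other tested genes by list, on the brightest probe set of each gene; filled points passed an adjusted p of 0.05 and open points did not. The members reach from -1.13 to -0.18, the 9 filled points for folding, modification and export include Fkbp14 near the level of Col11a1, and no point for degradation is filled.

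The cell type labels and array quality were checked beside these results. Of 6 osteoblast markers measured, 5 were above the filter (Alpl, Ibsp, Spp1, Phex and Pth1r) and Bglap was below it. Phex, an endopeptidase of osteoblasts and osteocytes that acts in phosphate balance, read 2636, 2757 and 2782 in the mineralizing cultures and 1670, 1563 and 1701 with AEBSF, a fall of 1.66-fold (adjusted p = 3.36e-05 in limma). The summed signal of the 6 osteoblast markers was 23440 to 24910 and 23230 to 23920, which overlap. Most of each sum was Ibsp (16520 ± 750 and 17100 ± 251, SD, n = 3 each), so the overlap says little about the other markers. Alpl, Ibsp, Spp1 and Pth1r did not pass. The part of Phex or of these markers in the collagen results was not tested. Of 7 chondrocyte markers 2, Acan and Hapln1, were above the filter and the defining Col2a1, Comp, Matn1, Col9a1 and Col10a1 were below it. The summed signal of these chondrocyte markers was 558.2 to 693.6 in the mineralizing cultures and 499.6 to 552.4 with AEBSF, and Hapln1 was lower with AEBSF. Its part in the fall of Col11a1 was not tested. Markers of macrophages and osteoclasts, endothelium, muscle, adipocytes and tendon had 0 or 1 gene above the filter each and 0 that passed. The ratio of 3′ to 5′ signal, a sign of RNA quality, was 1.02 to 1.06 for Gapdh in the mineralizing cultures and 1.05 to 1.08 with AEBSF, and 1.52 to 1.54 and 1.46 to 1.61 for beta-actin.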

How the data were processed

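One Affymetrix rat array was run per culture on biotin-labelled total RNA, 3 per group. Per the submitters' processing notes, signals were made with MAS5 in GCOS. The deposited intensity values are linear; software versions, the target of the scaling and presence calls were not given in the sources used here. On every array the trimmed mean signal (without the lowest and highest 2%) was 500.15 to 500.16. Probe sets were named from the platform annotation, updated to RefSeq symbols (20758 of 20826 probe sets with 1 symbol).

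Values were tested as log2 signal with limma 3.58.1 in R 4.3.3 (lmFit, eBayes with a mean-dependent prior, AEBSF minus mineralizing), leaving out 57 controls and probe sets at or below the 40th percentile of mean log2 signal; p-values were adjusted by Benjamini-Hochberg over 18625 probe sets. A gene is represented by its brightest probe set. The fit was tested on simulated data. All members are printed; from each pathway list, up to 4 called genes by size are named, or the 2 with the highest signal where fewer than 2 were called, and for Col1a1, Col1a2 and Col11a1 the 3 genes of most alike pattern. Members and lists were chosen with earlier results of these data known. The number of arrays limits the precision. Protein sequences were not used here.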

Additional observations from a re-analysis of the deposited data

How the results depend on the processing

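Alternatives were quantile normalization, median centring, scaling to 18 hybridization control probe sets, added constants of 16 and 64, no filter or the 60th percentile, a constant or robust variance prior, averaging the probe sets of a gene, a replicate block and leaving out each culture. Under all of them the called member probe sets stayed lower and past the threshold wherever they were tested; of 196 member values 195 kept their side and 1, Col5a1 with the mean of its probe sets, passed (log2 fold change -0.49). With the filter at the 60th percentile 9 of 10 tested member probe sets were lower. Pairs of members with the groups apart numbered 10 with 64 added and 11 to 13 without 1 culture, against 11. Leaving out a culture cannot make groups that lie apart overlap. The counts without 1 culture therefore could not fall below 11 and are no check of that result. With hybridization scaling, which moved the median of all genes to -0.144, the members ranged lower by about that shift.

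Same-numbered cultures did not deviate together (correlations 0.0109, -0.119 and -0.0359), which gave no sign of pairing but cannot exclude it. The labels state no pairing. With the replicate block 11 member probe sets and 12 pathway genes were lower, against 11 and 17. The calls of Pcolce (adjusted p = 0.0584), Loxl2 (0.0697) and Tgfbi (0.056) in limma were lost with this block. The pathway count was 11 with no filter, where more genes were tested, 9 with a constant variance prior, and 9 to 15 without 1 culture; the cause was not tested. Signs of 3 genes that did not pass turned: Bmp1 was -0.09 with hybridization scaling, -0.49 after averaging its probe sets and -0.05 to 0.22 without 1 culture; Mmp14 was 0.18 after averaging; Timp1 was -0.05 with hybridization scaling.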
